A study of Mus musculus with 12 samples.

Results

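The genes followed here are 8 genes of fat oxidation, ketone use and lipid storage, chosen as a set linked to fasting. They are Ppargc1a, Pdk4, Cpt1a, Acadm, Bdh1, Oxct1, Plin2 and Angptl4. They were taken by symbol from a count table of 21930 genes, each symbol matched 1 row, and the 8 genes passed the filter on low counts in each comparison. The table holds 12 RNA-seq libraries of the mouse eye, 3 in each of 4 groups. All groups were wild type male C57BL/6 J mice, 8 weeks old when the diets began. For 12 weeks they either ate ad libitum (AL) or followed intermittent fasting (IF), in which 24 h without food alternated with 24 h of free feeding. They then received a single intraperitoneal injection of PBS, the vehicle, or of 25 mg/kg NaIO3, sodium iodate, an oxidant that damages the retinal pigment epithelium (RPE), and tissue was taken 7 days later. The diets went on after the injection until tissue was taken. The groups are therefore AL + PBS, IF + PBS, AL + NaIO3 and IF + NaIO3. The sources used here do not give whether IF mice were killed on a fasting or a feeding day, and each library comes from 1 mouse, so n counts mice.

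During fasting, adipose tissue releases fatty acids, the liver turns part of them into ketone bodies, and other tissues switch from glucose to both fuels. The nuclear receptor PPAR alpha and the coactivator PGC-1 alpha, which Ppargc1a encodes, raise the genes of this programme. In the eye, photoreceptors and the RPE burn fatty acids, and the RPE makes ketone bodies from the lipid of shed outer segments and hands them to the photoreceptors.

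The libraries held between 26364665 and 43046950 counts, with a median of 31822705. Levels are given as CPM, counts relative to the scaled library total, with edgeR's TMM scaling factors between 0.934 and 1.14. In this unit 3 counts corresponded to between 0.0708 and 0.107 CPM. The label names RPE, choroid and sclera, whereas the methods describe eye cups, and the 12 photoreceptor markers summed to between 19400 and 64700 CPM, so photoreceptor RNA was abundant in these libraries. The 7 RPE markers summed to between 1980 and 2150 CPM in AL + PBS, 2230 and 2750 in IF + PBS, 1010 and 1240 in AL + NaIO3, and 1150 and 2020 in IF + NaIO3. The fat cell hormone Lep had at most 2 counts in a library, and Adipoq and Cidec had medians of 0.139 and 0.0236 CPM. The 8 adipocyte markers summed to between 30.0 and 49.9 CPM, most of it from Fabp4 and Lipe, with medians of 17.7 and 17.3 CPM. In such bulk tissue, fewer cells of a type and less RNA per cell cannot be told apart. Replicate 3 of AL + NaIO3 stood apart. Its 12 photoreceptor markers summed to 19400 CPM, against 37800 to 64700 in the other 11 libraries, and its 8 macrophage and microglia markers to 314 CPM, against 43.4 to 163. Its 6 markers of choroid and sclera stroma summed to 1280 CPM, and those of the other libraries of its group to between 89.1 and 173. Many of the values that follow are also given without this library.

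Expressed per length as the authors' FPKM, the enzymes that burn fat and ketones were the most abundant of the 8 transcripts. The median over 12 libraries was 56.9 FPKM for Acadm, 44.6 for Cpt1a and 25.1 for Oxct1. It was 9.36 FPKM for Bdh1, 9.04 for Ppargc1a and 3.23 for Plin2. Pdk4, at 0.220 FPKM, and Angptl4, at 0.0961 FPKM, were the least abundant, with 13 to 96 and 5 to 34 counts per library. Acadm exceeded Cpt1a, and Cpt1a exceeded Oxct1, in 11 of 12 libraries, while Bdh1 exceeded Ppargc1a in 8 of 12. The ranges of these neighbours overlapped, as did those of Ppargc1a and Plin2 and those of Pdk4 and Angptl4. Oxct1 and Bdh1, and likewise Plin2 and Pdk4, were apart in their ranges.

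**Figure D1:**
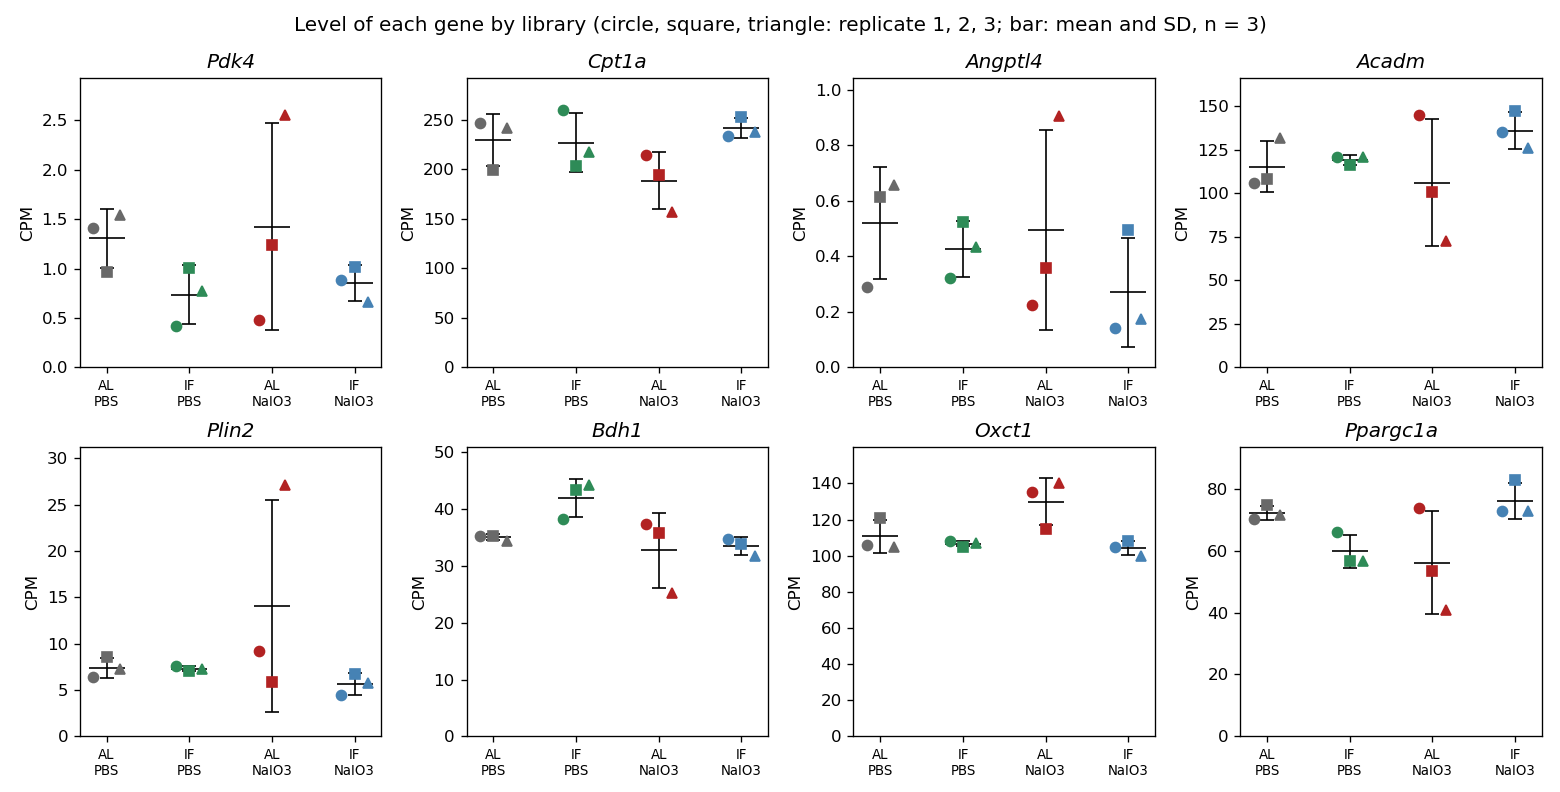
Level of each of the 8 genes in CPM (vertical axis, from 0) in the 12 libraries, by group (horizontal axis). Symbols are mice and bars the mean and SD of 3 mice. Replicate 3 of AL + NaIO3 (red triangle) is the highest of 12 libraries for Pdk4, Angptl4, Plin2 and Oxct1 and the lowest for Cpt1a, Acadm, Bdh1 and Ppargc1a.

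The first question was whether IF changed these genes, whichever injection was given. Averaged over PBS and NaIO3 on the 12 libraries, none of the 8 genes passed the test, an adjusted p under 0.05 with at least a 1.5-fold difference, which 0.225% of the 15970 genes tested did. DESeq2 also called 0 of the 8, and the edgeR count was 0 as well without replicate 3 of AL + NaIO3. An unadjusted p under 0.05 was reached by 2 of the 8, Plin2 and Oxct1, and by 16.1% of all genes. Leaving out 1 library moved this count of 2. It was 6 without replicate 1 of AL + NaIO3 and 0 without replicate 2 of AL + PBS or replicate 3 of IF + NaIO3. It was 1 without replicate 3 of AL + NaIO3, replicate 3 of AL + PBS, replicate 1 of IF + NaIO3 or any one of the IF + PBS libraries, and 1 with the replicate number as a block. The difference was above 0 for 4 genes and below 0 for the other 4, with a median log2 fold change of -0.05 beside -0.01 over all genes tested.

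The precision differed widely between the 8 genes. For the 5 abundant transcripts, a 1.5-fold difference in either direction lay outside the 95% interval of the diet effect averaged over both injections. IF relative to AL was 1.13-fold for Cpt1a (0.972 to 1.31), 1.15-fold for Acadm (0.939 to 1.41) and 1.11-fold for Bdh1 (0.956 to 1.28). It was 0.881-fold for Oxct1 (0.790 to 0.982) and 1.06-fold for Ppargc1a (0.889 to 1.27). The latter is a mean of opposite signs, -0.27 in log2 after PBS and 0.43 after NaIO3. After NaIO3 alone the intervals reached past 1.5-fold for Cpt1a (1.01 to 1.61), Acadm (0.882 to 1.83) and Ppargc1a (0.979 to 1.85). That of Oxct1 did so on the lower side (0.652 to 0.970). Over both injections, the intervals of the other 3 genes reached past 1.5-fold on the lower side. They were 0.320 to 1.06 around a 0.582-fold level for Pdk4, 0.401 to 0.981 around 0.628-fold for Plin2, and 0.322 to 1.40 around 0.671-fold for Angptl4.

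**Figure D2:**
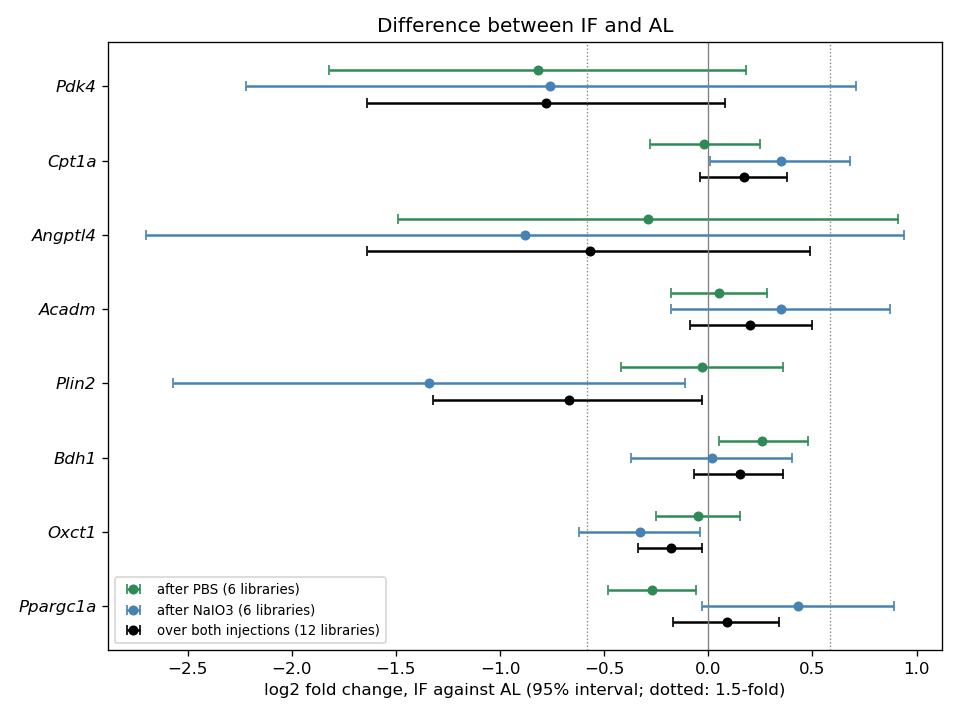
Log2 fold change of IF against AL (horizontal axis) for each gene, after PBS, after NaIO3 and over both injections. Bars are 95% intervals of edgeR's quasi-likelihood fit and dotted lines mark 1.5-fold. Pdk4, Angptl4 and Plin2 after NaIO3 have wide intervals, whereas the interval over both injections lies within 1.5-fold for Cpt1a, Acadm, Bdh1, Oxct1 and Ppargc1a. After NaIO3 alone the intervals of Cpt1a, Acadm, Oxct1 and Ppargc1a reach past 1.5-fold.

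Within PBS, where diet was compared without injury, 0 of the 8 genes were called, as were 0% of 15361 genes tested. Bdh1 and Ppargc1a had an unadjusted p under 0.05 (17.1% of all genes), and the libraries of both groups did not overlap for the same 2 genes (21.9% of all genes). The count of 2 was 0 without replicate 3 of IF + PBS and with the 12 libraries fitted together, and 1 without replicate 2 of IF + PBS or replicate 2 or 3 of AL + PBS. After NaIO3, 0 of the 8 genes were called, against 0.0383% of 15648 genes. Cpt1a, Plin2 and Oxct1 had an unadjusted p under 0.05 there (11.7% of all genes). The groups did not overlap for Cpt1a and Oxct1, and 18.9% of all genes did the same. Without replicate 3 of AL + NaIO3, or without any one of the IF + NaIO3 libraries, 0 of the 8 genes had an unadjusted p under 0.05 after NaIO3, and 4 had one without replicate 1 of AL + NaIO3 or with the 12 libraries fitted together.

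NaIO3 itself was compared with PBS within each diet. On AL, 0 of the 8 genes were called (0.0769% of 15612 genes), 0 had an unadjusted p under 0.05 (10.2% of all genes), and the groups overlapped for each gene (18.3% of all genes did not overlap). An unadjusted p under 0.05 was found for 2 of the 8 without replicate 1 or replicate 2 of AL + NaIO3, and for 3 with the 12 libraries fitted together. On IF, 0 of the 8 genes and 0% of 15305 genes were called. Ppargc1a and Bdh1 had an unadjusted p under 0.05 (15.2% of all genes), and 3 genes did without replicate 1 of IF + PBS or replicate 2 of IF + NaIO3. Acadm, Plin2, Bdh1 and Ppargc1a did not overlap between IF + NaIO3 and IF + PBS, 4 of the 8 genes beside 20.9% of all genes. The interaction, which asks whether the diet difference after NaIO3 differed from that after PBS, was called for 0 of the 8 genes and for 0.0313% of 15970 genes. Plin2 and Ppargc1a had an unadjusted p under 0.05 for it (12% of all genes). This count was between 1 and 4 with each library left out in turn, and 4 without replicate 1 of AL + NaIO3. Comparisons that share a group share its libraries, and the AL + NaIO3 libraries enter several of these counts.

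Ppargc1a (ENSMUSG00000029167, chr5:51454250-51567726 on GRCm38) encodes PGC-1 alpha, the coactivator that drives mitochondrial and fat oxidation genes in fasting. It had 70.3, 74.6 and 71.5 CPM in AL + PBS and 66.0, 56.7 and 56.5 CPM in IF + PBS. Each IF + PBS library was thus below each AL + PBS library, with means of 59.7 ± 5.45 and 72.1 ± 2.23 CPM (SD, n = 3 mice). The log2 fold change of -0.27 (SE 0.09) did not pass the test, with an adjusted p of 0.217 from edgeR. Without replicate 1 of IF + PBS it was -0.35 with an adjusted p of 0.0273 from edgeR, still under 1.5-fold. In AL + NaIO3 the values were 73.8, 53.5 and 40.8 CPM, and in IF + NaIO3 they were 72.8, 82.7 and 72.7 CPM. After NaIO3 the highest AL library lay within the range of the IF libraries, and the log2 fold change was 0.43 (SE 0.20, adjusted p = 0.453 from edgeR). Within IF, the NaIO3 libraries were above each PBS library, by 0.35 in log2 (SE 0.10, adjusted p = 0.220 from edgeR), and by 0.43 without replicate 1 of IF + PBS (adjusted p = 0.0484 from edgeR), again under 1.5-fold. On AL the log2 fold change of NaIO3 against PBS was -0.36 (SE 0.20, adjusted p = 0.575 from edgeR). Both comparisons with AL + NaIO3 rest in part on its replicate 3, which stood apart and had the lowest level, 40.8 CPM.

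The diet differences of Ppargc1a after PBS and after NaIO3 therefore had opposite signs. The interaction was 0.71 in log2 (95% interval 0.20 to 1.22), with an unadjusted p of 0.00973 and an adjusted p of 0.309 from edgeR. It was 0.96 without replicate 1 of AL + NaIO3 (adjusted p = 0.0302 from edgeR), the only library whose omission carried one of the 8 genes past the test. Over the other libraries left out in turn the interaction was between 0.53 and 0.79, and the adjusted p between 0.179 and 0.579. Without replicate 3 of AL + NaIO3 it was 0.53 (adjusted p = 0.326 from edgeR). The summed photoreceptor markers of the AL + NaIO3 mice were 64700, 37800 and 19400 CPM, in the same order as their Ppargc1a levels. Over 12 libraries, Pearson's r between log2 levels of Ppargc1a and the photoreceptor sum was 0.87, and 0.71 without that replicate. The erythrocyte sum (-0.05 over 12 libraries) and the stroma sum (-0.48) had r of 0.81 and 0.56 with Ppargc1a once that replicate was left out. With the sums of Müller cell and astrocyte, endothelium, and macrophage and microglia markers r was -0.74, -0.69 and -0.68 over 12 libraries. These were -0.27, -0.05 and -0.26 without that replicate. The libraries share depth and tissue makeup in these measures, and the part of any of these tissues in the differences was not tested. In IF + PBS the photoreceptor sum was between 50200 and 55300 CPM, against 55800 to 58800 in AL + PBS. The stroma sum was 57.0 to 103 CPM in IF + PBS against 121 to 194 in AL + PBS. Endothelium had 167 to 171 against 191 to 202 CPM, and erythrocytes 41.8 to 57.3 against 65.1 to 84.9 CPM. The RPE sum was higher in IF + PBS.

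Acadm (ENSMUSG00000062908, chr3:153922357-153944632 on GRCm38) encodes medium-chain acyl-CoA dehydrogenase, an enzyme of the first step of mitochondrial beta-oxidation. It had 106, 108 and 132 CPM in AL + PBS and 121, 116 and 121 CPM in IF + PBS, so the groups overlapped. In AL + NaIO3 the values were spread over 145, 101 and 72.4 CPM, and in IF + NaIO3 they were 135, 147 and 126 CPM. The log2 fold change of IF against AL was 0.05 (SE 0.10) after PBS and 0.35 (SE 0.23) after NaIO3, where it was 0.13 (SE 0.16) without replicate 3 of AL + NaIO3. Each IF + NaIO3 library was above each IF + PBS library, by 0.19 in log2 (SE 0.09, adjusted p = 0.362 from edgeR). The AL + NaIO3 values of Acadm, like those of Ppargc1a, Cpt1a and Bdh1, stood in the order of the photoreceptor sums of those mice. Pearson's r of Acadm with the photoreceptor sum was 0.88 over 12 libraries and 0.65 without replicate 3 of AL + NaIO3. With the erythrocyte sum it was -0.17 and 0.69. It was -0.79 and -0.32 with the Müller cell and astrocyte sum, -0.77 and -0.19 with endothelium, and -0.62 and 0.26 with stroma. With macrophages and microglia it was -0.60 and 0.01. The part of these tissues in the Acadm values was not tested.

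Of the 28 pairs among the 8 genes, Acadm and Ppargc1a had the highest Pearson's r of log2 CPM over 12 libraries, 0.83, and 0.90 after the group means were removed. It was 0.60 without replicate 3 of AL + NaIO3, below the 0.62 of Plin2 and Oxct1. Both genes also varied with the photoreceptor sum, whose part in the correlation was not tested. To show this pair, the 250 bases upstream of their RefSeq transcription starts are shown, 5′ to 3′ on the strand of each gene, on GRCm38. They lie at chr3:153944644-153944893 for Acadm and chr5:51567726-51567975 for Ppargc1a, both on the minus strand. The strings searched on both strands were AGGTCA, the core motif of nuclear receptors such as PPAR alpha, and TGACG, the core motif of the cAMP-responsive factor CREB. Capitals mark their matches, which do not overlap each other.

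Acadm: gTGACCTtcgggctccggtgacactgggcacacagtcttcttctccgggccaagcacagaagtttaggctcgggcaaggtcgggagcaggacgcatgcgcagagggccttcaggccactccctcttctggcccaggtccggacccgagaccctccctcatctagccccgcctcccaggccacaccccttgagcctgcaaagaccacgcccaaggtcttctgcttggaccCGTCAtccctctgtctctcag
Ppargc1a: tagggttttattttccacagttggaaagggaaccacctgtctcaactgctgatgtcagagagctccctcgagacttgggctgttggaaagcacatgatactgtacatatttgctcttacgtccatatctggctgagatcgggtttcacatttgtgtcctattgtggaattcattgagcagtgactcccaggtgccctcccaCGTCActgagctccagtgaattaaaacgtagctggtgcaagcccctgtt

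The CREB motif began 21 bases before the start of Acadm and 49 bases before that of Ppargc1a, in each case on the opposite strand. The nuclear receptor motif began 249 bases before the start of Acadm and was not in the Ppargc1a window. Of 32851 RefSeq promoters of this length, 14% held AGGTCA and 17.8% held TGACG. Among the other genes with a RefSeq window, Cpt1a and Plin2 each held 1 match to AGGTCA, and Pdk4, Bdh1 and Oxct1 held none of either. Such matches are descriptions of letters, not binding sites.

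Pdk4 (ENSMUSG00000019577, chr6:5483351-5496309 on GRCm38) encodes a kinase that shuts the pyruvate dehydrogenase complex, so that glucose carbon is spared while fat is burned. It had 1.41, 0.968 and 1.54 CPM in AL + PBS and 0.417, 1.01 and 0.776 CPM in IF + PBS. The means were 1.31 ± 0.301 and 0.735 ± 0.300 CPM (SD, n = 3 mice), and 1 library of each group lay in the range of the other. IF against AL after PBS gave a log2 fold change of -0.82 (SE 0.45, adjusted p = 0.375 from edgeR). After NaIO3 the values were 0.481, 1.24 and 2.55 CPM on AL and 0.889, 1.02 and 0.658 CPM on IF. The IF values lay inside the AL range, and the log2 fold change of -0.76 (SE 0.64) was -0.01 (SE 0.62) without replicate 3 of AL + NaIO3. Over both injections the diet effect was -0.78 (SE 0.40, adjusted p = 0.352 from edgeR), and -0.42 (SE 0.37) without that replicate. Skeletal muscle is a tissue rich in Pdk4, and the 12 skeletal muscle markers summed to between 161 and 347 CPM in AL + PBS and between 23.8 and 119 in IF + PBS. In AL + NaIO3 the order was the opposite, with muscle sums of 336, 251 and 99.3 CPM in replicates 1, 2 and 3. The stroma, endothelium and erythrocyte sums given above were also lower in IF + PBS than in AL + PBS, without overlap. Over 12 libraries Pearson's r of Pdk4 was 0.28 with the muscle sum and 0.67 with the stroma sum. It was 0.62 with the sum of Müller cells and astrocytes, 0.61 with that of endothelium and -0.62 with that of photoreceptors. The same values were 0.48, 0.35, 0.18, 0.14 and -0.17 without replicate 3 of AL + NaIO3. The part of these tissues in the Pdk4 values was not tested.

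Cpt1a (ENSMUSG00000024900, chr19:3322334-3385733 on GRCm38) encodes the carnitine acyltransferase that admits long-chain fatty acids to mitochondria. It had 247, 199 and 242 CPM in AL + PBS and 260, 203 and 217 CPM in IF + PBS, with a log2 fold change of -0.02 (SE 0.12). After NaIO3 the AL libraries had 214, 194 and 157 CPM and the IF libraries 234, 253 and 238 CPM. Each IF library was above each AL library there, with means of 242 ± 10.2 and 188 ± 29.1 CPM (SD, n = 3 mice). The log2 fold change was 0.35 (SE 0.15, adjusted p = 0.416 from edgeR), and 0.23 (SE 0.12, adjusted p = 0.633 from edgeR) without replicate 3 of AL + NaIO3. The interaction of 0.38 (95% interval -0.05 to 0.80) did not pass the test. Pearson's r of Cpt1a with the sum of 7 markers of Müller cells and astrocytes was -0.89 over 12 libraries and -0.76 without that replicate. Most of that sum came from Glul, Apoe and Dkk3, with medians of 2310, 1100 and 762 CPM, and Apoe ranged from 955 to 3910 CPM. This marker sum was between 5380 and 8220 CPM in AL + NaIO3 and between 4430 and 4590 CPM in IF + NaIO3, and the macrophage and microglia sum was between 119 and 314 CPM and between 43.4 and 63.5 CPM. Cpt1a had r of -0.81 with the latter sum, and of -0.58 without that replicate. Its r was 0.78 with photoreceptors, -0.77 with endothelium and -0.70 with stroma, and 0.39, -0.37 and -0.14 without that replicate. The part of these tissues in the Cpt1a values was not tested.

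Bdh1 (ENSMUSG00000046598, chr16:31422280-31458901 on GRCm38) encodes the mitochondrial dehydrogenase that converts beta-hydroxybutyrate to acetoacetate and back. It had 35.3, 35.3 and 34.4 CPM in AL + PBS and 38.2, 43.3 and 44.3 CPM in IF + PBS. The IF libraries were all above the AL libraries, with means of 41.9 ± 3.29 and 35.0 ± 0.536 CPM (SD, n = 3 mice). The log2 fold change was 0.26 (SE 0.10, 95% interval 0.05 to 0.48), with an adjusted p of 0.238 from edgeR. The RPE sums given above did not overlap between these groups either, being higher in IF + PBS, and the stroma sum was 57.0 to 103 CPM in IF + PBS against 121 to 194 in AL + PBS. After NaIO3 the values were 37.3, 35.8 and 25.2 CPM on AL and 34.7, 33.9 and 31.7 CPM on IF, where the log2 fold change was 0.02 (SE 0.17). Without replicate 3 of AL + NaIO3 it was -0.14 (SE 0.12). Within IF, each NaIO3 library was below each PBS library, by -0.32 in log2 (SE 0.10, adjusted p = 0.226 from edgeR). The RPE marker sum was also lower in those IF + NaIO3 libraries than in the IF + PBS libraries. On AL the RPE sum was lower after NaIO3 too, 1010 to 1240 CPM against 1980 to 2150 CPM. There Bdh1 was not lower in replicates 1 and 2 of AL + NaIO3 (37.3 and 35.8 CPM) than in AL + PBS, and only replicate 3 was. Pearson's r of Bdh1 was 0.54 with the RPE sum and -0.78 with the stroma sum over 12 libraries, and 0.48 and -0.39 without replicate 3 of AL + NaIO3. With endothelium it was -0.77 and -0.36, and with erythrocytes -0.67 and -0.39. It was 0.66 and -0.06 with photoreceptors, and 0.63 and 0.39 with adipocytes. With Müller cells and astrocytes it was -0.65 and 0.04, and with macrophages and microglia -0.53 and 0.08. The part of these tissues in the Bdh1 values was not tested.

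Oxct1 (ENSMUSG00000022186, chr15:4026383-4155344 on GRCm38) encodes the CoA transferase that commits acetoacetate to oxidation outside the liver. It had 106, 121 and 105 CPM in AL + PBS and 108, 105 and 107 CPM in IF + PBS, with a log2 fold change of -0.05 (SE 0.09). After NaIO3 it had 135, 115 and 140 CPM on AL and 105, 108 and 99.8 CPM on IF. Each IF library was below each AL library, and the log2 fold change was -0.33 (SE 0.12, adjusted p = 0.379 from edgeR). Without replicate 3 of AL + NaIO3 it was -0.27 (SE 0.12, adjusted p = 0.553 from edgeR). Over both injections the diet effect was -0.18 (SE 0.07, adjusted p = 0.234 from edgeR), and -0.16 without that replicate. The AL + NaIO3 libraries were also the 3 with the highest macrophage and microglia sum, 119 to 314 CPM against 43.4 to 63.5 in the other groups. Pearson's r of Oxct1 with that sum was 0.86 over 12 libraries, and 0.74 without replicate 3. The same 3 libraries were highest in the sum of Müller cell and astrocyte markers, 5380 to 8220 CPM against 4430 to 5200, and of endothelium, 225 to 456 CPM against 164 to 202. Oxct1 had r of 0.84 with the first of these sums and 0.77 with the second, and of 0.77 and 0.56 without replicate 3. Its r was 0.73 with stroma, 0.69 with erythrocytes, -0.56 with RPE and -0.55 with photoreceptors. Those values were 0.43, 0.48, -0.49 and 0.14 without replicate 3. The part of these cells in the Oxct1 values was not tested.

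Plin2 (ENSMUSG00000028494, chr4:86648386-86670060 on GRCm38) encodes perilipin 2, the coat protein of lipid droplets in most cells that are not adipocytes. It had 6.44, 8.57 and 7.26 CPM in AL + PBS and 7.57, 7.02 and 7.30 CPM in IF + PBS. These values overlapped, and the log2 fold change was -0.03 (SE 0.18). After NaIO3 it had 9.24, 5.83 and 27.1 CPM on AL and 4.42, 6.75 and 5.75 CPM on IF. One AL library was thus far above the rest, and the lowest AL value lay within the IF range. The log2 fold change of -1.34 (SE 0.53, adjusted p = 0.397 from edgeR) was -0.43 (SE 0.29, adjusted p = 0.763 from edgeR) without that library. The interaction of -1.29 (SE 0.60, adjusted p = 0.415 from edgeR) was -0.40 (SE 0.32) without it. Within IF, each NaIO3 library was below each PBS library, by -0.37 in log2 (SE 0.21, adjusted p = 0.417 from edgeR). Pearson's r of Plin2 over 12 libraries was 0.88 with the Müller cell and astrocyte sum, 0.87 with those of endothelium and stroma, 0.74 with that of macrophages and microglia, and -0.77 with that of photoreceptors. The same values were 0.35, 0.25, 0.34, 0.18 and 0.32 without replicate 3 of AL + NaIO3. The part of these tissues in the Plin2 values was not tested.

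Angptl4 (ENSMUSG00000002289, chr17:33773750-33781830 on GRCm38) encodes a secreted inhibitor of lipoprotein lipase. It had 9, 26 and 20 counts in AL + PBS, which are 0.288, 0.614 and 0.657 CPM, and 10, 16 and 14 counts in IF + PBS, which are 0.321, 0.522 and 0.435 CPM. After NaIO3 it had 7, 10 and 34 counts on AL (0.225, 0.356 and 0.904 CPM) and 5, 18 and 5 counts on IF (0.143, 0.496 and 0.173 CPM). The groups overlapped in each comparison. The log2 fold change of IF against AL was -0.29 (SE 0.54) after PBS and -0.88 (SE 0.79) after NaIO3, and the latter was -0.09 (SE 0.91) without replicate 3 of AL + NaIO3. At these counts differences between the diets were not detectable unless large.

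**Figure D3:**
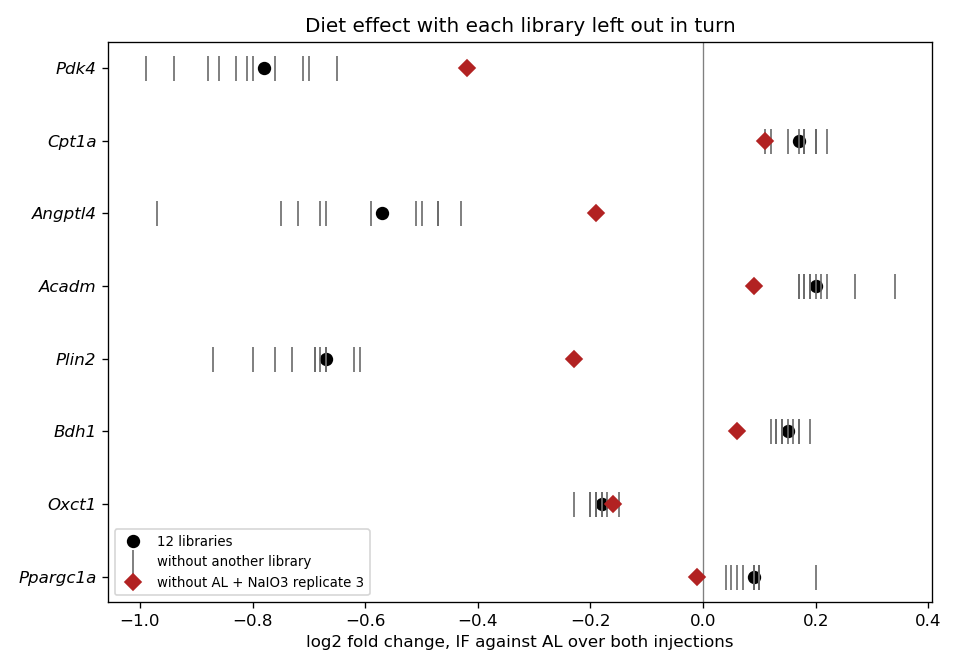
Diet effect over both injections (log2 fold change of IF against AL, horizontal axis) for each gene with 12 libraries (black) and with each library left out in turn. Without replicate 3 of AL + NaIO3 (red) the value moves towards 0 for each gene, from -0.78 to -0.42 for Pdk4, from -0.67 to -0.23 for Plin2 and from -0.57 to -0.19 for Angptl4, and that of Ppargc1a changes from 0.09 to -0.01. Other omissions move it away from 0, to -0.99 for Pdk4 and 0.34 for Acadm without replicate 1 of AL + NaIO3, to -0.87 for Plin2 without replicate 2 of that group (adjusted p = 0.0782 from edgeR), and to -0.97 for Angptl4 without replicate 2 of IF + NaIO3.

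**Figure D4:**
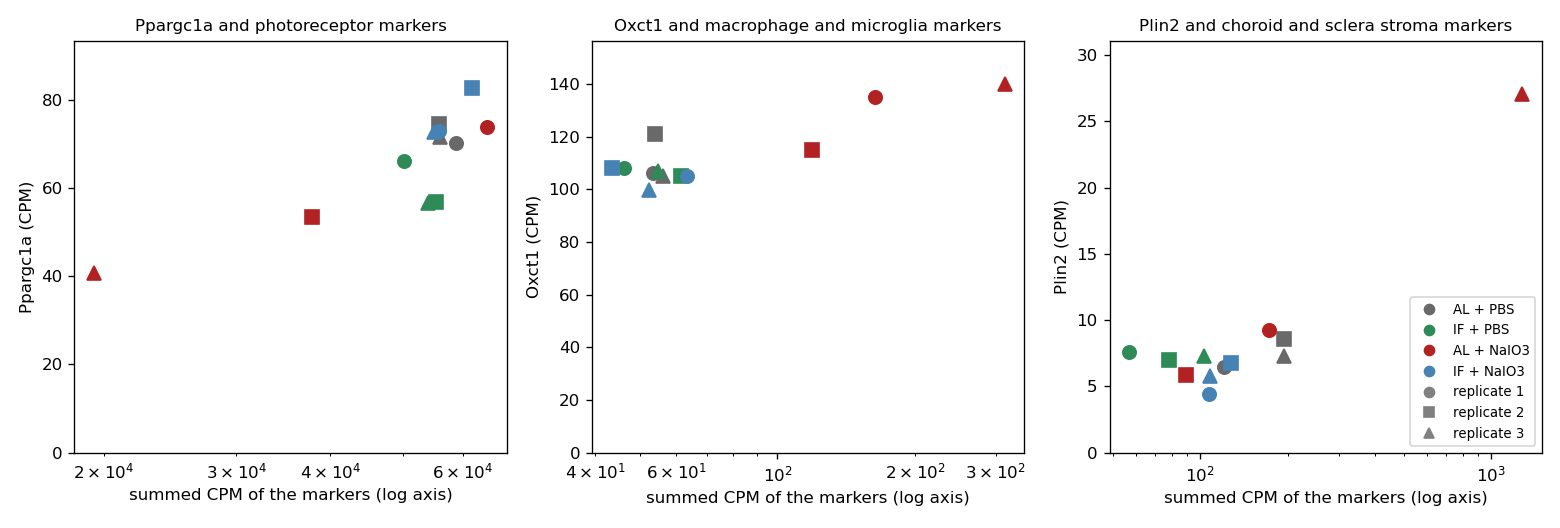
Level of Ppargc1a, Oxct1 and Plin2 (CPM, vertical axis from 0) against the summed CPM of photoreceptor, macrophage and microglia, and stroma markers (horizontal log axis), 1 point per library. Pearson's r of the log2 values is 0.87, 0.86 and 0.87 over 12 libraries, and 0.71, 0.74 and 0.34 without replicate 3 of AL + NaIO3. Plin2 had r as high with the Müller cell and astrocyte sum (0.88) and that of endothelium (0.87), which are not drawn.

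Among the 8 genes, 7 of 28 pairs had a Pearson's r above 0.5 and 9 of 28 below -0.5 over the 12 libraries. These counts were 4 and 1 without replicate 3 of AL + NaIO3. Of all genes tested, those most like Ppargc1a were Mllt3, Snap91 and Cnot6, each at r = 0.98, and those most like Acadm were Rpa3 (0.98), Smc1a and Ppm1d (0.95 each). Cpt1a was nearest to Galnt4, H2bc6 and Abca13, each at 0.95. Bdh1 was nearest to Bcl7b (0.98), Ecsit (0.97) and Nabp2 (0.96), and Pdk4 to Six4 (0.87), B3gnt9 (0.86) and Pde7b (0.85). Oxct1 was nearest to Fcgr3 (0.94), Cx3cr1 and Kctd12b (0.92 each), of which Cx3cr1 is a microglia marker of the list above. Plin2 was nearest to Cyp39a1 (0.97), 9530068E07Rik and Smo (0.96 each), and these were between 0.74 and 0.81 without replicate 3 of AL + NaIO3. Angptl4 was nearest to Ehhadh (0.88), Acot1 (0.87) and Pygm (0.85), and these were 0.84, 0.85 and 0.79 without that replicate.

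The wider programme was described with 10 lists, the 8 genes included, that together hold 140 genes, of which 133 were tested for the diet effect. None of the 133 was called over both injections, and 8 had an unadjusted p under 0.05 with higher and 17 with lower levels in IF, 18.8% beside 16.1% of all genes. The counts without replicate 3 of AL + NaIO3 were 0 called, 9 higher and 9 lower, 13.5% beside 13.7% of all genes. The median log2 fold change was -0.01, as over all genes. The lowest adjusted p from edgeR was 0.0689, for Dgat1, an enzyme of triglyceride synthesis, at a log2 fold change of 0.47, followed by 0.0762 for Aacs, which activates acetoacetate for lipid synthesis, at 0.34. Both were singled out after their values were seen. Within PBS 0 of 130 tested genes were called, and after NaIO3 0 of 133.

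By list, the ketone genes other than Bdh1 and Oxct1 had 1 of 10 tested genes higher and 0 lower at an unadjusted p under 0.05. Over all genes tested, 16.1% had such a p in either direction, a share that stands beside each list count here and below. The monocarboxylate transporter Slc16a1, which carries ketone bodies and lactate, had a log2 fold change of 0.14 (SE 0.15) over both injections, and of 0.02 (SE 0.11) without replicate 3 of AL + NaIO3. The ketone gene with the widest change was the receptor Hcar2 at -1.47 (SE 0.72, adjusted p = 0.328 from edgeR), on 0 to 30 counts per library. Mitochondrial beta-oxidation genes had 0 of 16 higher and 3 lower at an unadjusted p under 0.05, with the short-chain enzyme Acads widest at -0.41 (SE 0.16, adjusted p = 0.232 from edgeR). This is a mean of opposite signs, 0.17 (SE 0.21) after PBS and -1.01 (SE 0.27, adjusted p = 0.253 from edgeR) after NaIO3, and its interaction was -1.17 (adjusted p = 0.243 from edgeR). The uptake and carnitine shuttle list had 1 of 19 higher and 2 lower, and its widest gene, the acyl-CoA synthetase Acsbg1 (-0.92, SE 1.01), was at 0 counts in some libraries of 3 groups. Peroxisomal and omega oxidation genes had 1 of 10 higher and 1 lower, with Acaa1b at 0.48 (SE 0.65), and at 0.17 (SE 0.42) without replicate 3 of AL + NaIO3.

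Lipolysis and lipid droplet genes had 2 of 15 higher and 3 lower at an unadjusted p under 0.05. The widest was Plin4, another droplet coat protein, at -0.86 (SE 0.33, adjusted p = 0.217 from edgeR). Its AL + NaIO3 mice had 3.34, 7.82 and 18.7 CPM, so the same library was highest as for Plin2. Without it the diet effect of Plin4 was -0.45 (SE 0.24), and within PBS it was 0.14 (SE 0.27). With that library included, it was -1.89 (SE 0.57, adjusted p = 0.302 from edgeR) after NaIO3. The interaction of Plin4 was -2.01 (adjusted p = 0.309 from edgeR). The uncoupling protein Ucp2, widest of the other PPAR alpha targets (0 of 9 higher and 2 lower) at -0.65 (SE 0.26, adjusted p = 0.242 from edgeR), had 119 CPM in that library and between 18.2 and 42.0 in the other 11. Without that library its diet effect was -0.24 (SE 0.11), and within PBS it was 0.16 (SE 0.10). With that library included, it was -1.48 (SE 0.47, adjusted p = 0.323 from edgeR) after NaIO3. The interaction of Ucp2 was -1.62 (adjusted p = 0.297 from edgeR). The pyruvate switch list had 0 of 13 higher and 1 lower, Pdpr, a regulator of pyruvate dehydrogenase phosphatase, at -0.47 (SE 0.16, adjusted p = 0.166 from edgeR). Pdpr was at -0.81 (SE 0.18, adjusted p = 0.175 from edgeR) after PBS and at -0.14 (SE 0.23) after NaIO3, with an interaction of 0.68 (adjusted p = 0.412 from edgeR). After NaIO3 it had 19.1, 19.8 and 28.9 CPM on AL, highest in replicate 3, and 17.0, 19.4 and 25.7 CPM on IF. The other AL values lay within the IF range. The regulators had 1 of 17 higher and 0 lower, with Pparg, the adipocyte PPAR, widest at -0.96 (SE 0.48, adjusted p = 0.344 from edgeR), and Ppara itself at 0.08 (SE 0.19). These were -0.37 (SE 0.45) and -0.06 (SE 0.14) without replicate 3 of AL + NaIO3. Of the glucocorticoid and FOXO genes, 2 of 19 were higher and 3 lower, and Trim63, a muscle ubiquitin ligase, was widest at -1.12 (SE 0.38, adjusted p = 0.170 from edgeR). Trim63 had 1.47, 1.75 and 1.31 CPM in AL + PBS and 0.610, 0.718 and 0.839 CPM in IF + PBS, groups that did not overlap and that differed in the muscle marker sum given above for Pdk4. In AL + NaIO3 it had 1.32, 0.925 and 4.36 CPM, highest in replicate 3, whose muscle sum was the lowest of its group. Without that library the diet effect of Trim63 was -0.64 (SE 0.30).

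**Figure D5:**
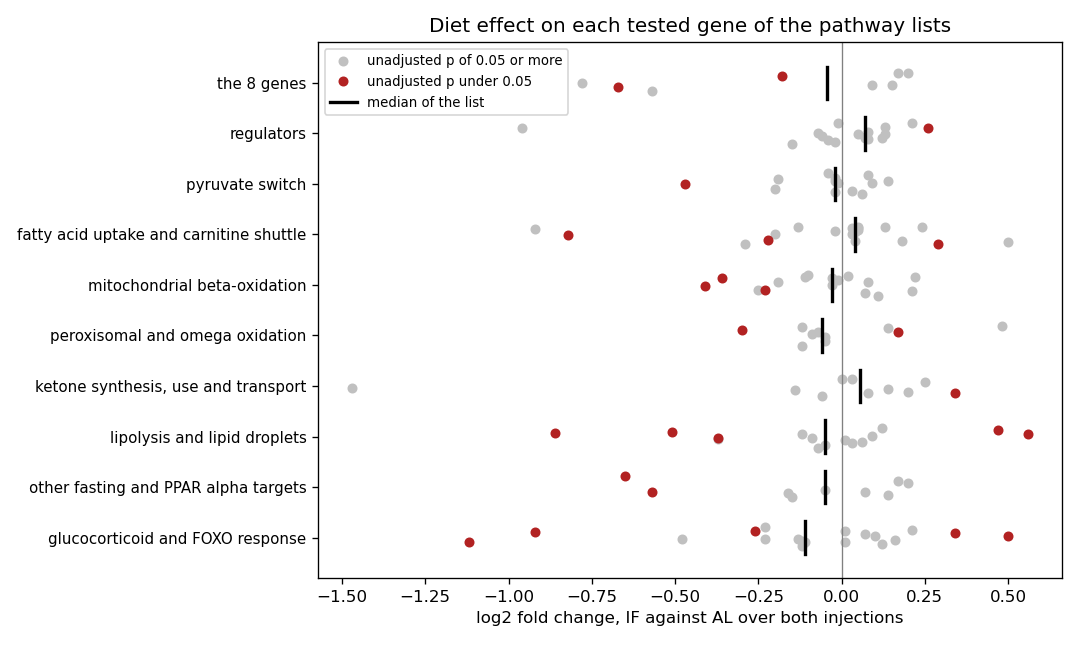
Diet effect over both injections (log2 fold change of IF against AL, horizontal axis) of each tested gene in the 10 lists, with list medians as black bars and unadjusted p under 0.05 in red. The medians lie between -0.11 and 0.07, and none of the 133 genes passes the test.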

How the data were processed

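The authors sequenced poly-A selected RNA, and the submitters' processing notes name HISAT2, StringTie, DESeq2 and edgeR and the build GRCm39. The deposited counts are the authors' whole-number reads per gene without normalization, and the counting tool, annotation and use of strand are not given in the sources used here. Of 21221 genes matched by symbol to RefSeq GRCm38.p6, 21203 overlapped their place there, so coordinates are those of GRCm38. The deposited FPKM values, scaled by the authors to gene length and library reads, served only to order levels between genes. Another table, with the authors' fold changes, p-values and group means for IF + NaIO3 against AL + NaIO3, was not used. There were 0 columns without a sample.

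In R 4.3.3, edgeR 4.0.16 was used with TMM, filterByExpr and its quasi-likelihood test, on the 6 libraries of a pair of groups or on 12 libraries for the diet effect and the interaction. Benjamini-Hochberg adjustment ran over all genes tested, and a call needed an adjusted p under 0.05 together with a 1.5-fold difference, or the adjusted p alone for the interaction. Intervals are 95%, and the spread is between mice. Marker sums are of CPM, and correlations used log2 CPM with 0.5 counts added. The 12 within-group pairs of libraries differed by a chi-square per gene of 12.8 to 229, so none was a duplicate. The script was tested on simulated data with 200 changed genes. Alternatives were DESeq2 1.42.0, its size factors in edgeR, no filter, no fold threshold, the replicate number as a block, the 12 libraries together for pairs, and each library left out, for the genes named from the lists only replicate 3 of AL + NaIO3, chosen after seeing the data. The 8 genes and the lists were chosen with earlier results of these data known. Other genes were named by a rule: the called genes of a list (at most 3) or, with none called, its widest diet effect, the 3 genes most correlated with each of the 8, and markers. Genes outside it (Dgat1, Aacs, Slc16a1, Ppara) were added after their values were seen. RefSeq windows upstream were found for 7 of the 8 genes.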

Additional observations from a re-analysis of the deposited data

How the results depend on the processing

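Of 608 values of the 8 genes under the alternatives, 579 kept their direction and their side of the test. The counts of called genes over the whole table moved far more. DESeq2 called 392 genes for the diet effect over both injections, 189 for IF + PBS against AL + PBS, 478 for IF + NaIO3 against AL + NaIO3, 411 for AL + NaIO3 against AL + PBS, 80 for IF + NaIO3 against IF + PBS and 215 for the interaction. It called 0 of the 8 genes in each. Without a filter on low counts, edgeR called 16, 19, 2 and 13 genes in the last 4 of these comparisons. With the 12 libraries fitted together, 190 genes were called for IF against AL after NaIO3 and 177 for NaIO3 against PBS on AL. Leaving out 1 library gave between 6 and 203 genes for the diet effect, 1 and 472 for IF + PBS against AL + PBS, 0 and 75 for IF + NaIO3 against AL + NaIO3, 0 and 90 for AL + NaIO3 against AL + PBS, 0 and 197 for IF + NaIO3 against IF + PBS, and 3 and 366 for the interaction. The cause of these shifts was not tested.

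Same-numbered libraries did not deviate together (correlations between -0.0768 and 0.123 over 18 pairs, 1 of them above 0.1). No pairing by number was thus detected, which does not show that the mice were handled without pairing. With the replicate number as a block, 5 genes were called for IF + PBS against AL + PBS, 28 for IF + NaIO3 against AL + NaIO3, 28 for AL + NaIO3 against AL + PBS and 8 for the interaction, and Pdk4 changed sign for AL + NaIO3 against AL + PBS, to a log2 fold change of -0.08.

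Leaving out 1 library gave 0 or 1 of the 8 genes called for the interaction, Ppargc1a at 0.96 without replicate 1 of AL + NaIO3 (adjusted p = 0.0302 from edgeR), and 0 in the other comparisons. It turned the direction of 14 log2 fold changes. Their ranges for IF + PBS against AL + PBS were -0.13 to 0.06 for Cpt1a, -0.01 to 0.16 for Acadm, -0.12 to 0.09 for Plin2 and -0.09 to 0.02 for Oxct1. For AL + NaIO3 against AL + PBS they were -0.60 to 0.55 for Pdk4, -0.84 to 0.29 for Angptl4, -0.41 to 0.09 for Acadm and -0.19 to 0.06 for Bdh1. For IF + NaIO3 against AL + NaIO3 Bdh1 was between -0.14 and 0.13. For IF + NaIO3 against IF + PBS Pdk4 was between -0.05 and 0.52 and Oxct1 between -0.06 and 0. For the interaction Pdk4 was between -0.33 and 0.82 and Angptl4 between -1.36 and 0.20, and for the diet effect Ppargc1a was between -0.01 and 0.20. Without replicate 3 of AL + NaIO3, an alternative added for the list genes after the data had been seen, Ppara turned to -0.06. Pdk4 and Angptl4 had the fewest counts of the 8 genes, at most 96 and 34 in a library.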
